A study of Caenorhabditis elegans with 9 samples.

Results

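The abu and pqn genes of Caenorhabditis elegans encode proteins rich in glutamine and asparagine. Every gene of the deposited expression table whose public name is abu or pqn followed by a number, and which the WBcel235 annotation calls protein-coding, was taken, whatever its level. That gave 67 genes of the 28749 in the table, 14 named abu and 53 named pqn. Of the 71 such names in the annotation, 2 belong to pseudogenes (abu-3 and pqn-11), which were left out, and 2 (pqn-76 and pqn-78) were not analysed here.

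The pqn genes were named for a prion-like domain rich in glutamine (Q) and asparagine (N), and their products range from extracellular matrix proteins to RNA-binding proteins. The abu genes, "activated in blocked unfolded protein response", were named because they are induced when endoplasmic reticulum stress meets a worm that lacks the IRE-1/XBP-1 branch of the unfolded protein response. Many abu genes and their pqn relatives are transcribed in the pharynx, the feeding organ, in waves that accompany each moult, and their products belong to the cuticle that lines the pharyngeal lumen.

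Poly(A) RNA was sequenced from whole worms of 3 strains, with 3 libraries each. WLZ3 carries the integrated transgene wlzIs3, in which the snb-1 promoter, active in all neurons, drives human LRRK2 with the Parkinson's disease substitution G2019S. WLZ1 carries wlzIs1, the same promoter with wild-type human LRRK2. Both transgenes hold lin-15(+) as a marker, and each strain is 1 integrated line, so the LRRK2 form and the line cannot be told apart. N2 is the wild-type Bristol strain, with neither transgene. The worms were kept at 20 °C on Escherichia coli OP50. No source used here gives their stage, age or sex. No label says that the libraries of a strain came from separate cultures, so p-values measure the spread between libraries, which may be technical. In RNA of whole animals, fewer cells of a type and less RNA per cell cannot be told apart.

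Expression is in FPKM, fragments per kilobase of transcript scaled to the mapped total, which allows levels of different genes to be compared. The read totals recovered from the FPKM steps were 38128730 to 53336533 per library. The test was limma on log2(FPKM + 1), run on the 14862 genes that reached 1 FPKM in 3 or more of the 9 libraries, with Benjamini-Hochberg adjustment over all of them. A difference counts as called where its adjusted p is below 0.05. On this scale the change of a gene near 1 FPKM is understated. Of the 67 genes, 55 were tested, 8 abu and 47 pqn. The filter let in pqn-10 through its N2 libraries and pqn-84 through its WLZ1 libraries alone. WLZ3 replicate 1 was over 1.5 times the mean of the other WLZ3 libraries for 8 of the 55 tested members. Among them were abu-10, abu-11 and pqn-74. The same held for 9 of 19 pharyngeal cuticle and chitin genes, 6 of 6 sperm genes and 7.15% of all genes tested. No such ratios are given for the other libraries. WLZ3 replicate 1 differed from WLZ3 replicates 2 and 3 by 11.05 and 8.36 chi-square units per gene. N2 replicate 1 was about as distant from N2 replicates 2 and 3, at 11.11 and 10.25, while those differed by 4.56. The largest value, 11.75, was between WLZ1 replicates 2 and 3. Values without WLZ3 replicate 1 are given where a result rests on it.

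In WLZ1 worms most abu and pqn genes were lower than in N2 worms. Of the 55 tested, 7 were higher and 35 lower. Over all genes tested, 26.6% were higher and 41.1% lower. The median difference in log2(FPKM + 1) was -0.75 for the 55 genes, beside -0.13 for all genes. Under median-of-ratios scaling those medians were -0.64 and 0.03, so the gap between them was -0.62 as deposited and -0.68 rescaled. The gap was -0.47 under quantile normalization, -0.28 with a filter at a mean of 5 FPKM and -0.24 without a filter. Under median-of-ratios scaling the split of the 55 was 12 higher and 30 lower. The share of higher calls among all calls over the table was then 53.6% in place of 39.3%. Without pqn-10 and pqn-84 the count as deposited was 6 higher and 34 lower of 53.

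In WLZ3 worms the same comparison with N2 worms gave 3 genes higher and 32 lower, with 13.3% and 22.7% of all genes called in those directions. The median difference was -0.36 for the 55 genes and -0.02 for all genes. The count of lower genes was 23 without WLZ3 replicate 1, 15 without N2 replicate 2, 20 without N2 replicate 3 and 21 without WLZ3 replicate 2, and the count of higher genes ran from 0 (without WLZ3 replicate 2) to 4 (without WLZ1 replicate 2). WLZ3 set against WLZ1 gave 30 higher and 5 lower, with 29.6% and 12.6% of all genes called. Here the medians were 0.45 and 0.10. Median-of-ratios scaling gave 28 higher and 12 lower of the 55, and over all calls of the table the share of higher ones was 45.9% in place of 70.2%. For WLZ3 against N2 that share was 49.8% in place of 36.9%. Without pqn-10 and pqn-84, WLZ3 against N2 gave 3 higher and 31 lower of 53, and WLZ3 against WLZ1 gave 29 and 4. The 2 comparisons with N2 share the N2 libraries, and the 3 comparisons are not independent of each other.

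**Figure D1:**
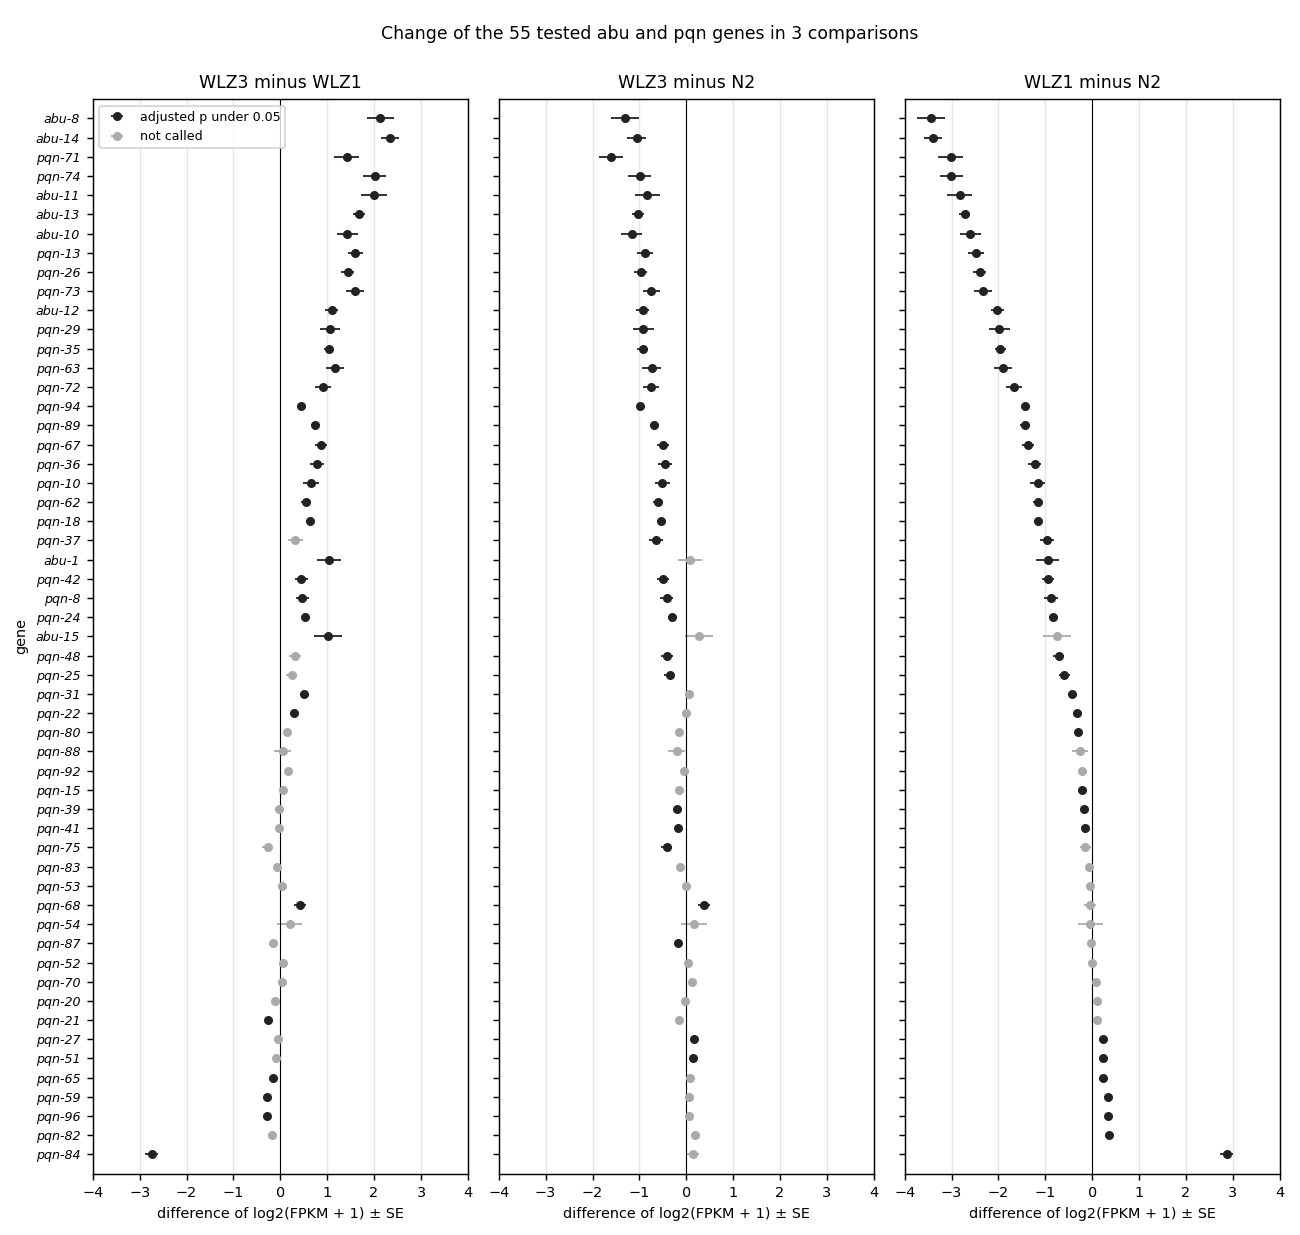
Difference in log2(FPKM + 1) for each of the 55 tested abu and pqn genes, ordered by WLZ1 minus N2, in WLZ3 minus WLZ1 (left), WLZ3 minus N2 (middle) and WLZ1 minus N2 (right). Points are limma estimates and bars their SE (n = 3 libraries a strain); dark points have an adjusted p under 0.05. The lowest value is abu-8 at -3.44 in WLZ1 minus N2, and pqn-84 alone stands far to the right there, at 2.87.

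The order of the strain means was N2 highest, WLZ3 between and WLZ1 lowest in 34 of the 55 genes, or 61.8%, against 42.2% of all genes tested. In 27 of the 55, or 49.1%, every N2 library was above every WLZ3 library and every WLZ3 library above every WLZ1 library. The same held for 20.7% of all genes. The opposite order, WLZ1 highest and N2 lowest, was found in 7 of the 55, or 12.7%, against 28.3% of all genes. pqn-10, which the filter let in through N2, is among the 27, and pqn-84, let in through WLZ1, is among the 7.

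The 3 strains were fully separated in this order in 6 of the 8 tested abu genes. The FPKM of all 14 abu genes added up to 117, 77.9 and 89.1 in the WLZ3 libraries, to 16.2, 12.9 and 25.3 in the WLZ1 libraries, and to 160.0, 226 and 199 in the N2 libraries. The 3 strains did not overlap in this sum. Of the 8 tested abu genes, 7 fell in WLZ1 against N2 (median -2.66), 6 fell in WLZ3 against N2 (median -0.98), and all 8 were higher in WLZ3 than in WLZ1 (median 1.56). The counts were the same under median-of-ratios scaling, and under quantile normalization 5 in place of 6 fell in WLZ3 against N2.

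The most abundant of them was abu-14 (CELE_ZK1067.7), on chromosome II at 9225186 to 9227214. It had 57, 43 and 48.0 FPKM in the WLZ3 libraries, 8.34, 6.90 and 12.2 FPKM in the WLZ1 libraries, and 84.8, 120.0 and 108.1 FPKM in the N2 libraries. The strains were fully separated. The means were 49.3 ± 7.1, 9.16 ± 2.76 and 104.3 ± 17.9 FPKM in WLZ3, WLZ1 and N2 (SD, n = 3 each). abu-14 thus fell to a level 11.4-fold below N2 in WLZ1 (limma log2 difference -3.39 ± 0.20 SE, adjusted p = 2.86e-06) and to 2.12-fold below N2 in WLZ3 (-1.06 ± 0.20, adjusted p = 0.0049). WLZ3 was 5.39-fold above WLZ1 (2.33 ± 0.20, adjusted p = 5.98e-05).

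abu-8 (CELE_C03A7.14), on chromosome V at 5192995 to 5194608, showed the largest fall. It had 13.2, 8.46 and 9.53 FPKM in WLZ3, 1.76, 0.773 and 2.42 FPKM in WLZ1, and 18.5, 36.2 and 28.5 FPKM in N2. The lowest N2 library, at 18.5 FPKM, was above the highest WLZ3 library. The mean in WLZ1 was 16.8-fold below that in N2 (limma log2 difference -3.44 ± 0.29, adjusted p = 1.49e-05), and the WLZ3 mean was 2.67-fold below it (-1.31 ± 0.29, adjusted p = 0.01).

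abu-11 (CELE_T01D1.6), on chromosome II at 192509 to 194558, is the family member whose overexpression is known to lengthen worm lifespan. It had 13.2, 7.52 and 8.31 FPKM in WLZ3, 1.36, 0.970 and 2.80 FPKM in WLZ1, and 14, 19.8 and 19.3 FPKM in N2. WLZ1 lay far below both other strains, while the highest WLZ3 library came close to the lowest N2 library. The fall in WLZ1 against N2 was -2.83 ± 0.27 (limma, adjusted p = 2.72e-05). The fall in WLZ3 against N2 was -0.83 ± 0.27 (adjusted p = 0.0401), and that call was lost in 5 of the fits that leave out 1 library (without N2 replicate 2 or 3, WLZ3 replicate 2 or 3, or WLZ1 replicate 1), with adjusted p from 0.0539 to 0.12.

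abu-13 (chromosome III, 6941888 to 6945898), abu-10 (chromosome X, 3798182 to 3799741) and abu-12 (chromosome X, 450446 to 457610) followed the same order. abu-13 had 12.6, 10.6 and 12.7 FPKM in WLZ3, 2.68, 2.63 and 3.86 FPKM in WLZ1, and 25, 28.1 and 23.7 FPKM in N2. abu-10 had 5.38, 2.65 and 4.14 FPKM in WLZ3, 0.695, 0.503 and 1.39 FPKM in WLZ1, and 8.96, 10.7 and 10.6 FPKM in N2. For all 3 genes each strain's libraries stayed apart from the others. The log2 differences of WLZ1 from N2 were -2.72, -2.60 and -2.02 for abu-13, abu-10 and abu-12, those of WLZ3 from N2 were -1.04, -1.17 and -0.93, and those of WLZ3 from WLZ1 were 1.69, 1.43 and 1.09. All 9 differences were called by limma.

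abu-1 and abu-15, both on chromosome V, were expressed near the limit of the filter and departed from this order. abu-1 had 2.96, 0.933 and 0.976 FPKM in WLZ3, 0.227, 0.114 and 0.294 FPKM in WLZ1, and 1.25, 1.45 and 1.31 FPKM in N2. abu-15 had 3.87, 0.953 and 1.31 FPKM in WLZ3, 0.238, 0.285 and 0.656 FPKM in WLZ1, and 1.40, 1.42 and 1.16 FPKM in N2. WLZ1 was lowest in each, and the first WLZ3 library stood far above the other two. abu-1 fell in WLZ1 against N2 (-0.95 ± 0.25, limma adjusted p = 0.00824), while abu-15 did not pass (-0.75 ± 0.30, adjusted p = 0.0515). The differences of WLZ3 from N2, 0.08 for abu-1 and 0.27 for abu-15, were not called, and without WLZ3 replicate 1 they were -0.26 and -0.13. Each was higher in WLZ3 than in WLZ1, by 1.03 (adjusted p = 0.0111) and 1.02 (adjusted p = 0.0246), and the call of abu-15 was lost without WLZ1 replicate 1 (adjusted p = 0.072) or WLZ1 replicate 2 (adjusted p = 0.0692).

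**Figure D2:**
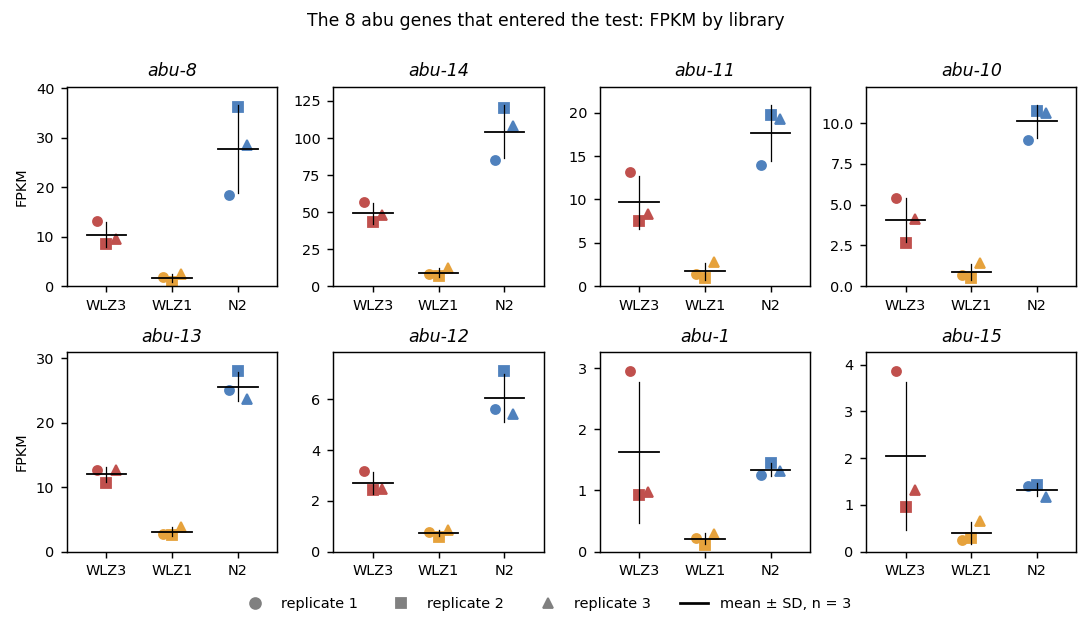
FPKM of the 8 tested abu genes in the 3 libraries of WLZ3, WLZ1 and N2. Symbols mark the replicate number, horizontal lines the mean and vertical lines ± SD (n = 3); each panel has its own linear axis. abu-14 reaches 120.0 FPKM in N2, and abu-1 and abu-15 have their highest value in WLZ3 replicate 1, at 2.96 and 3.87 FPKM.

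Among the 47 tested pqn genes, 7 were higher and 28 lower in WLZ1 than in N2 (median -0.32), 3 were higher and 26 lower in WLZ3 than in N2 (median -0.21), and 22 were higher and 5 lower in WLZ3 than in WLZ1 (median 0.30). The shares of all genes tested, in the same order, were 26.6% and 41.1% (median -0.13), 13.3% and 22.7% (median -0.02), and 29.6% and 12.6% (median 0.10). Under median-of-ratios scaling the last split was 20 higher and 12 lower (median 0.17), and under quantile normalization 18 and 6 (median 0.059). The median of WLZ1 against N2 was -0.13 and -0.14 under these rescalings, and that of WLZ3 against N2 -0.16 and -0.18. The rescaled medians of all genes were -0.023 and -0.025 for WLZ3 against WLZ1, 0.03 and 0.07 for WLZ1 against N2, and 0.03 and 0.03 for WLZ3 against N2. The sum over all 53 pqn genes was 1841 to 1852 in WLZ3, 1795 to 1905 in WLZ1 and 2028 to 2099 in N2. WLZ3 and WLZ1 overlapped and N2 was above both. The gap from WLZ1 rested on 1 gene, pqn-94, with means of 134, 97.6 and 266 FPKM in WLZ3, WLZ1 and N2. Without pqn-94 the sums of N2 would still be above those of WLZ3 but would overlap those of WLZ1.

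pqn-71 and pqn-74 fell furthest among the pqn genes in WLZ1 against N2. pqn-71 (chromosome V, 15465677 to 15467100) had 4.96, 5.48 and 5.48 FPKM in WLZ3, 1.04, 0.961 and 2.32 FPKM in WLZ1, and 12, 24.1 and 20.8 FPKM in N2. pqn-74 (chromosome IV, 13329507 to 13331406) had 26.3, 14.8 and 16.7 FPKM in WLZ3, 3.82, 2.66 and 5.52 FPKM in WLZ1, and 32.6, 43.9 and 38.8 FPKM in N2. No libraries of different strains overlapped in either gene. Against N2, WLZ1 was 13.2-fold lower for pqn-71 (-3.02 ± 0.26, limma adjusted p = 1.69e-05) and 9.6-fold lower for pqn-74 (-3.01 ± 0.24, adjusted p = 1.22e-05). pqn-71 had the largest fall of all members in WLZ3 against N2 (-1.61 ± 0.26, adjusted p = 0.00318). pqn-74 fell there by 0.99 (adjusted p = 0.0147), a call lost without N2 replicate 2 (adjusted p = 0.0563).

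pqn-13, on chromosome V, had 9.23, 8.79 and 9.37 FPKM in WLZ3, 2.63, 1.52 and 3.06 FPKM in WLZ1, and 14.9, 18.8 and 19.3 FPKM in N2, and all 3 of its differences were called (1.60 for WLZ3 against WLZ1, -0.87 for WLZ3 against N2 and -2.48 for WLZ1 against N2). Chosen after their values were seen, pqn-26, pqn-73, pqn-35 and pqn-63 were also lower in WLZ1 than in N2, with differences of -2.40, -2.34, -1.96 and -1.90, and in WLZ3 than in N2, with -0.97, -0.74, -0.93 and -0.74. In WLZ3 against N2, the call of pqn-73 was lost without N2 replicate 2 or 3 (adjusted p up to 0.0633), and that of pqn-63 without those or without WLZ3 replicate 2 or 3 (up to 0.0711). Of these, pqn-35 overlaps neighbouring genes of the clec family, and no source used here says whether the counting used strand. Among all members, 14 overlap a protein-coding gene.

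Also chosen after its values were seen, pqn-94 (chromosome V, 20278160 to 20279861) was the most abundant gene with a fall in both LRRK2 strains. It had 125, 131 and 146 FPKM in WLZ3, 104, 95.7 and 93.1 FPKM in WLZ1, and 245, 272 and 279.9 FPKM in N2. The N2 libraries were far above the rest, and the lowest WLZ3 library was above the highest WLZ1 library by about as much as the WLZ3 libraries differed among themselves. WLZ3 was 1.99-fold below N2 (-0.99 ± 0.07, limma adjusted p = 0.000182) and WLZ1 was 2.72-fold below N2 (-1.43 ± 0.07, adjusted p = 1.75e-06), but WLZ3 was above WLZ1 by only 0.45 ± 0.07 (adjusted p = 0.0018).

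The falls lay mostly in members of lower abundance, as they did over all genes tested. The 20 genes with a 9-library mean of at least 20 FPKM had a median difference of -0.02 for WLZ1 against N2, with 6 higher and 6 lower. The 19 genes between 5 and 20 FPKM had a median of -1.43, with 0 higher and 16 lower, and the 16 genes under 5 FPKM had a median of -1.06, with 1 higher and 13 lower. All genes in the same bands had medians of 0.13, -0.43 and -0.48. Their counts were 2724 higher and 1221 lower of 5989, 471 and 2072 of 3535, and 754 and 2809 of 5338. For WLZ3 against N2 the medians of the members were -0.02, -0.69 and -0.50, beside 0.08, -0.16 and -0.20 for all genes.

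Several abundant pqn genes were higher in WLZ1. pqn-59, whose product resembles the human stress granule protein UBAP2L, was the most abundant member. It had 366, 384 and 375 FPKM in WLZ3, 429, 509 and 428 FPKM in WLZ1, and 386, 345 and 355 FPKM in N2. Its WLZ1 libraries stood above all 6 others, while WLZ3 and N2 overlapped. pqn-59 was 1.26-fold higher in WLZ1 than in N2 (0.33 ± 0.07, limma adjusted p = 0.00343), and WLZ3 was 1.21-fold lower than WLZ1 (-0.28 ± 0.07, adjusted p = 0.0161). pqn-96 had 128, 123 and 129 FPKM in WLZ3, 159, 168 and 136 FPKM in WLZ1, and 123, 119 and 125 FPKM in N2, and its differences were likewise 0.33 for WLZ1 against N2 and -0.28 for WLZ3 against WLZ1.

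pqn-82, pqn-65, pqn-51 and pqn-27 completed the small rises in WLZ1 over N2, at 0.37, 0.24, 0.23 and 0.22. pqn-27 had 57.1, 59.7 and 59.5 FPKM in WLZ3, 62.3, 60.9 and 60.5 FPKM in WLZ1, and 49.7, 53.4 and 54.2 FPKM in N2, so both LRRK2 strains were above N2. In WLZ3 against N2, pqn-27 rose by 0.16 (limma adjusted p = 0.0211), pqn-51 by 0.14 (adjusted p = 0.0451) and pqn-68 by 0.38 (adjusted p = 0.0448). These were the 3 rises in that comparison. The call of pqn-27 was lost without WLZ3 replicate 2 or 3 (adjusted p up to 0.0686). That of pqn-51 was lost in 7 and that of pqn-68 in 6 of the 9 fits that leave out 1 library (up to 0.145 for each). pqn-68 had 16.8, 18.4 and 14.6 FPKM in WLZ3, 13.4, 10.2 and 12.9 FPKM in WLZ1, and 14.4, 12.4 and 11 FPKM in N2. The WLZ3 libraries were the highest, and the other strains overlapped.

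The genes lower in WLZ3 than in WLZ1 were pqn-84, pqn-96, pqn-59, pqn-21 (-0.26, adjusted p = 0.00924 by limma) and pqn-65 (-0.15, adjusted p = 0.0297). The call of pqn-65 was lost in 5 of the 9 fits that leave out 1 library, with adjusted p up to 0.1. Against N2, the WLZ3 differences of pqn-21 (-0.16, adjusted p = 0.0679) and pqn-65 (0.08, adjusted p = 0.19) were not called.

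The rise of pqn-84 in WLZ1 was far above the next one, 0.37 for pqn-82. pqn-84 (CELE_Y41C4A.5) lies on chromosome III at 11700259 to 11702862. It had 0.279, 0.286 and 0.331 FPKM in WLZ3, 9.58, 6.92 and 6.77 FPKM in WLZ1, and 0.169, 0.257 and 0.131 FPKM in N2. All WLZ1 libraries were far above the rest, and the 3 WLZ3 libraries were slightly above the 3 N2 libraries. The WLZ1 mean was 41.8-fold above the N2 mean (limma log2 difference 2.87 ± 0.14, adjusted p = 1.55e-06). WLZ3 was 26-fold below WLZ1 (-2.74 ± 0.14, adjusted p = 3.73e-06). The difference of WLZ3 from N2 was 0.13 ± 0.14 (adjusted p = 0.47). pqn-84 was tested only because WLZ1 passed the filter, so the filter favoured its calls in the comparisons with WLZ1. Likewise pqn-10, let in by N2, had 0.922, 0.709 and 0.787 FPKM in WLZ3, 0.0443, 0.0943 and 0.311 FPKM in WLZ1, and 1.30, 2.21 and 1.29 FPKM in N2.

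**Figure D3:**
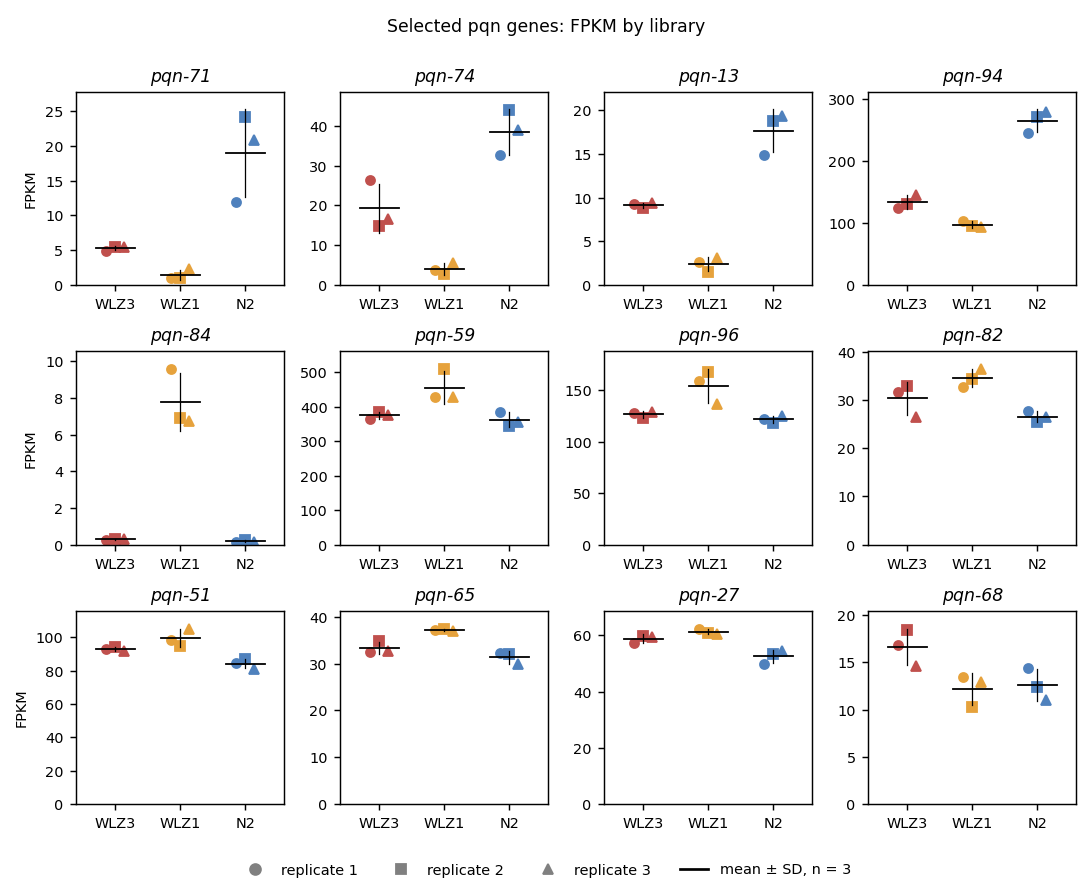
FPKM of 12 pqn genes in the 3 libraries of WLZ3, WLZ1 and N2: pqn-94, chosen after its values were seen, and 11 that met the naming rule. Symbols mark the replicate number, horizontal lines the mean and vertical lines ± SD (n = 3); each panel has its own linear axis. pqn-71, pqn-74 and pqn-13 step down in the order N2, WLZ3, WLZ1, pqn-84 is above 1 FPKM in WLZ1 alone, and pqn-59 stays between 345 and 509 FPKM.

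pqn-41, which acts in the death of the linker cell of the male gonad, and pqn-75, which is expressed in pharyngeal gland cells, were looked at for their known roles after their values were seen. pqn-41 had 15, 16.8 and 15.9 FPKM in WLZ3, 16.3, 16.7 and 15.4 FPKM in WLZ1, and 17.6, 18.4 and 18.1 FPKM in N2, with N2 slightly above the rest. It was called lower against N2 in WLZ3 (-0.18, limma adjusted p = 0.0473) and in WLZ1 (-0.15, adjusted p = 0.046), and the WLZ1 difference changed sign under both rescalings (0.03 and 0.15, neither called). Each call was lost in 6 of the 9 fits that leave out 1 library, with adjusted p up to 0.164 and 0.132. The span of pqn-41 shares 1749 bases with a pseudogene, and that of pqn-75 shares 2329 bases with a coding gene on the opposite strand. How reads there were divided is uncertain. pqn-75 was lower in WLZ3 than in N2 (-0.42, adjusted p = 0.0217, up to 0.0795 without N2 replicate 2 or 3 or WLZ3 replicate 1), while its difference of -0.14 in WLZ1 was not called (adjusted p = 0.284) and turned to a called rise of 0.43 under quantile normalization (adjusted p = 0.00542).

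The 12 genes that did not pass the filter were abu-2, abu-4, abu-5, abu-6, abu-7, abu-9, pqn-2, pqn-16, pqn-57, pqn-79, pqn-90 and pqn-91. Of them, 9 stayed under 0.25 FPKM in every library, and pqn-57 had 1 read and pqn-79 2 reads over all 9 libraries. A gene with 1 kb of exons and no reads could be present at up to 0.112 to 0.157 FPKM, the level of 3 fragments. The other three reached 1 FPKM in WLZ3 replicate 1 alone. abu-6 had 2.97, 0.514 and 0.789 FPKM in WLZ3, 0.0321, 0.0342 and 0.322 FPKM in WLZ1, and 0, 0.292 and 0.209 FPKM in N2. abu-7 and pqn-2 had 2.17 and 3.17 FPKM in WLZ3 replicate 1 and at most 0.748 and 0.629 FPKM in any other library. These are levels without a test.

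WLZ3 replicate 1 was raised for several low members. Set against the mean of the other WLZ3 libraries, it was higher by a ratio of 6.18 for pqn-2, 4.56 for abu-6, 3.75 for abu-7, 3.43 for abu-15, 3.10 for abu-1 and 2.54 for pqn-54, the last named after its values were seen. These 6 were grouped after their values were seen, as low genes highest in WLZ3 replicate 1, so a peak of their sum there was fixed. They added up to 21.8, 5.63 and 7.30 FPKM in WLZ3, 3.99, 3.41 and 4.94 FPKM in WLZ1, and 6.33, 7.92 and 6.30 FPKM in N2. In the same library 8 of the 55 tested members (14.5%) were over 1.5 times the other WLZ3 libraries, and 7 of the 12 untested ones, beside 7.15% of all genes tested. Over that ratio were also 9 of 19 pharyngeal cuticle genes and 6 of 6 sperm genes, but 1 of 24 moulting genes and 0 of 23 genes of the unfolded protein response. The part of any of these in the members' values was not tested.

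**Figure D4:**
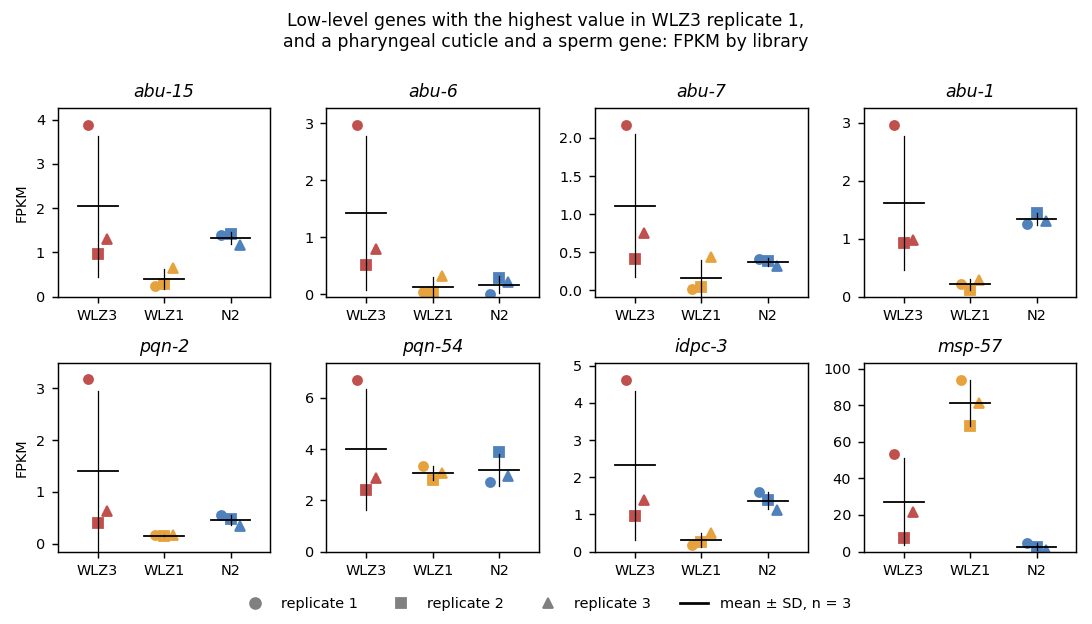
FPKM of abu-15, abu-6, abu-7, abu-1, pqn-2 and pqn-54, and of idpc-3 (pharyngeal cuticle) and msp-57 (sperm), in the 3 libraries of WLZ3, WLZ1 and N2. Symbols mark the replicate number, horizontal lines the mean and vertical lines ± SD (n = 3); each panel has its own linear axis. The first 6 genes were chosen, after their values were seen, because WLZ3 replicate 1 is the highest of the 9 libraries. idpc-3, added outside the naming rule, is the 1 gene of 19 tested in its list with that peak. msp-57 is highest in WLZ1, at up to 93.7 FPKM.

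Except for pqn-54, these low genes lie beside one another in 2 places on chromosome V. At one, abu-15 and abu-6 face each other across 770 bases, both with a coding length of 1164 bases, and abu-7 follows abu-6 after 1377 bases. At the other, abu-1 and pqn-2 run away from each other across 615 bases, both with a coding length of 1275 bases. Elsewhere pqn-57 and abu-9 on chromosome X are 1121 bases apart with a coding length of 1134 bases each, pqn-90 and pqn-91 on chromosome IV are 644 bases apart, and abu-5 and pqn-79 share a coding length of 1005 bases. Where such neighbours are near-copies, how their reads were divided is uncertain, since no source used here says how reads that match several genes were treated. abu-8 lies 28212 bases from abu-7 with 6 coding genes between. Over the genome, chromosome V holds 19 of the 67 members.

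Other genes of the pharynx and of the moult were lower in the same order. The pharyngeal cuticle list (the idp genes, which encode disordered cuticle proteins, and the chitin gene chs-2) had 0 higher and 19 lower of 19 tested in WLZ1 against N2 (median -1.58), 0 and 13 in WLZ3 against N2 (median -0.56), and 18 and 0 in WLZ3 against WLZ1 (median 0.95). The list summed to 88.1 to 133 FPKM in WLZ3, 22.3 to 32.0 FPKM in WLZ1 and 147 to 214 FPKM in N2. Under quantile normalization 4 of the 19 were called lower in WLZ3 against N2. idpc-1 had 27.4, 19 and 18.4 FPKM in WLZ3, 4.25, 3.27 and 6.21 FPKM in WLZ1, and 34.2, 60.5 and 49.8 FPKM in N2, with the strains fully apart. Its differences were -3.14 for WLZ1 against N2, -1.11 for WLZ3 against N2 and 2.03 for WLZ3 against WLZ1, all called by limma.

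The pharyngeal gland list (the phat genes, expressed in the gland cells, and their regulator hlh-6) had 7 of 7 lower in WLZ1 and 5 of 7 lower in WLZ3 than in N2, and the pharyngeal muscle list had 6 of 6 and 5 of 6 lower, with none higher in either list. phat-5 had 14.3, 12.4 and 13.3 FPKM in WLZ3, 1.97, 1.98 and 3.82 FPKM in WLZ1, and 25.2, 49 and 42 FPKM in N2. The pharyngeal myosin gene myo-2 had 11.8, 9.29 and 12 FPKM in WLZ3, 5.73, 4.90 and 6.47 FPKM in WLZ1, and 23.5, 35.7 and 30.7 FPKM in N2. Each kept the 3 strains apart. Summed levels of the muscle list ran from 165 to 197 FPKM in WLZ3, from 86.3 to 105.8 FPKM in WLZ1 and from 280.0 to 390.0 FPKM in N2, and those of the gland list from 50.4 to 57.7, from 21.7 to 30.1 and from 84.1 to 122 FPKM in the same strains.

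Of 24 tested moulting genes, 22 were lower and 0 higher in WLZ1 than in N2 (median -1.08), 16 and 0 in WLZ3 than in N2 (median -0.51), and 20 were higher and 0 lower in WLZ3 than in WLZ1 (median 0.68). mlt-9, which is needed to complete moulting, had 12.8, 11.5 and 12.5 FPKM in WLZ3, 3.24, 2.51 and 3.62 FPKM in WLZ1, and 23, 27.6 and 23.6 FPKM in N2. nhr-23, a nuclear receptor that drives the moulting cycle, was named after its values were seen. It had 21.2, 21.5 and 22.2 FPKM in WLZ3, 21.8, 22 and 24.1 FPKM in WLZ1, and 21.3, 19.9 and 20.4 FPKM in N2, and no difference was called as deposited. The difference of WLZ1 from N2 was 0.13 (adjusted p = 0.0579) and was called under both rescalings, at 0.32 and 0.34.

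Genes of the endoplasmic reticulum unfolded protein response, the setting in which the abu genes were named, were called in both directions. Over all genes tested, 26.6% were higher and 41.1% lower in WLZ1 than in N2, and 13.3% and 22.7% in WLZ3 than in N2. In WLZ3 against WLZ1 those shares were 29.6% and 12.6%. Of 23 tested, 5 were higher and 10 lower in WLZ1 than in N2 (median -0.03), 2 and 7 in WLZ3 than in N2 (median -0.12), and 1 and 4 in WLZ3 than in WLZ1 (median -0.0034). Median-of-ratios scaling turned the WLZ1 split to 11 higher and 3 lower, with a median of 0.17. hsp-4, which encodes a BiP chaperone and is the usual reporter of this response, had 164, 157 and 159 FPKM in WLZ3, 185, 186 and 195 FPKM in WLZ1, and 181, 152 and 155 FPKM in N2. The WLZ1 libraries were the highest, by 0.22 over N2 (limma adjusted p = 0.0139, up to 0.0535 without N2 replicate 2 or 3). hsp-3 of the same list, added after its values were seen, went the other way. It was lower than in N2 in WLZ1 (-0.24, adjusted p = 0.003) and in WLZ3 (-0.24, adjusted p = 0.0088). pek-1, the kinase that senses stress in another branch, was lower in WLZ3 (-0.37, adjusted p = 0.00789) and in WLZ1 (-0.30, adjusted p = 0.00728) than in N2. The largest called falls in WLZ1 against N2 were atf-4 (-0.70), pdi-2 (-0.47) and dnj-27 (-0.37), and the largest called rise was sel-1 (0.36). In WLZ3 against N2, atf-4 (-0.47) and uggt-1 (-0.25) were called lower. The call of uggt-1 was lost in 4 of the fits that leave out 1 library.

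As deposited, most markers of body wall muscle, epidermis and neurons were lower than in N2 in both LRRK2 strains, and most intestine markers in WLZ1 only. In WLZ1 against N2, body wall muscle had 5 of 5 genes lower, epidermis 4 of 6, intestine 4 of 6 and neurons 8 of 8, and no gene of these lists was higher. In WLZ3 against N2 the lower counts were 3, 4, 1 and 8, again with none higher. Under median-of-ratios scaling 2 of 6 intestine genes were lower in WLZ1. There 1 epidermis gene was higher in WLZ1 and 1 body wall muscle gene in WLZ3. Under quantile normalization the intestine list had 1 higher and 3 lower in WLZ1, and 1 and 1 in WLZ3. Leaving out 1 library lost the WLZ3 against N2 calls of unc-15 in 4 fits, mup-2 in 2, dpy-7 in 5 and rol-6 in 7. Over all genes tested, 26.6% were higher and 41.1% lower in WLZ1, and 13.3% and 22.7% in WLZ3. The intestine count in WLZ3 was thus not above the share of all genes. The epidermis genes lin-26 and bli-1 and the intestine genes elt-2 and asp-1 were not called in any comparison. Germ line and oocyte genes went the other way, with 8 of 8 higher in WLZ1 and 6 of 8 higher in WLZ3, and sperm genes rose in 6 of 6 and 4 of 6. The sperm genes were uneven in WLZ3, where replicate 1 exceeded the mean of the other libraries by a median ratio of 4.29. For example, msp-19 had 37.4, 4.17 and 10.2 FPKM in WLZ3. In WLZ3 against N2, the calls of msp-19 and msp-49 were lost without N2 replicate 2 or 3 (limma adjusted p up to 0.081). Median differences of the germ line list were 0.40 and 0.23, and those of the sperm list 3.68 and 2.03. The summed neuron list ran from 158 to 188 FPKM in WLZ3, from 117 to 137 FPKM in WLZ1 and from 244 to 309 FPKM in N2. The body wall muscle list summed to 433 to 586, 261 to 284 and 564 to 631 FPKM in the same strains, the epidermis list to 177 to 182, 114 to 133 and 223 to 244 FPKM, and the intestine list to 2073 to 2270, 1935 to 2509 and 2323 to 2638 FPKM. All but the intestine list and the overlap of WLZ3 and N2 in body wall muscle kept the strains apart. The germ line list summed to 2044 to 2131 FPKM in WLZ3, 2353 to 2482 FPKM in WLZ1 and 1732 to 1903 FPKM in N2. The summed sperm list ran from 17.6 to 126 FPKM in WLZ3, from 163 to 209 FPKM in WLZ1 and from 2.51 to 13.5 FPKM in N2. Every gene of these lists found in the table was above 0 in at least 1 library. The part of tissue makeup or of stage in the members' differences was not tested.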

How the data were processed

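Poly(A) RNA of whole worms was sequenced in paired ends per the labels' protocols. The deposited values are FPKM per gene in 1 table, made by the authors. fastp 0.23.2, HISAT2 2.2.1, featureCounts 2.0.3 and WBcel235 are named in the submitters' processing notes, and no source used here gives the strand setting. Gene names, positions and biotypes came from Ensembl release 115 and RefSeq annotation of WBcel235, with 5 of 28749 table genes unmatched.

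Whole reads could be recovered from the FPKM steps for 23956 genes (91.8% of those above 0, tolerance 0.01) and for 60 of the 67 members. They were used only for depth and for the floor of 3 fragments (6 reads), which covers counting error only. Replicates differed by 4.56 to 11.7 chi-square units per gene, so none was a repeat of another.

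log2(FPKM + 1) of the deposited FPKM was fitted with limma 3.58.1 (R 4.3.3) using 1 mean per strain, an intensity trend and 9 libraries, for genes that reached 1 FPKM in 3 or more libraries. Calls are two-sided, with Benjamini-Hochberg adjustment over 14862 genes. The fit was tested on simulated data. Fold changes are ratios of mean FPKM. Alternatives were another pseudocount, filter, scaling, spread model, a replicate block, the 2 strains alone, and each library left out.

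The members, the gene lists and the rule for naming genes were chosen with earlier results of these data known. Named were every abu gene, the 6 largest called rises and falls per comparison with a mean of 5 FPKM or more in the higher strain, untested members, and up to 3 called genes per list and comparison. Only some of the list genes that met this rule are printed. Text says where others were added. A planned split of members by protein composition was not run, since no protein sequences were used here, and no sequences are printed.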

Additional observations from a re-analysis of the deposited data

How the results depend on the processing

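In WLZ1 minus N2, 34 of 42 member calls held in every alternative that tested the gene, in WLZ3 minus WLZ1 29 of 35, and in WLZ3 minus N2 15 of 35. Leaving out 1 library gave medians of -0.86 to -0.72 with 7 to 8 higher and 32 to 36 lower for WLZ1 minus N2, of -0.37 to -0.27 with 0 to 4 and 15 to 31 for WLZ3 minus N2, and of 0.34 to 0.50 with 26 to 31 and 4 to 6 for WLZ3 minus WLZ1. A filter at a mean of 5 FPKM, which tests fewer genes, gave medians of -0.26, -0.19 and 0.17 in that order, with 22 lower, 20 lower and 18 higher. Without a filter, genes near 0 enter, and the medians were -0.29 for WLZ1 minus N2 and -0.16 for WLZ3 minus N2, with 1 higher in WLZ3 minus N2. A pseudocount of 0.1 gave -0.91 for WLZ1 minus N2. Median-of-ratios scaling gave 12 higher in WLZ1 minus N2 and 12 lower in WLZ3 minus WLZ1. Quantile normalization gave medians of -0.40, -0.19 and 0.20, and 21 lower in WLZ3 minus N2. For WLZ3 minus N2, dropping the intensity trend gave 1 higher.

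With the replicate block, WLZ3 minus N2 gave 1 higher and 24 lower. Replicate numbers were not taken as pairing, because correlations of same-numbered libraries ran from -0.15 to 0.24 and no sample of WLZ3 minus WLZ1 or WLZ1 minus N2 was closest to its own number, against 4 of 6 in WLZ3 minus N2.

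Of the called members, 4 changed sign under a rescaling, all falls in WLZ1 minus N2 that were then not called by limma: pqn-39 (0.010) and pqn-41 (0.031) under median-of-ratios scaling, and pqn-15 (0.11), pqn-39 (0.017), pqn-41 (0.15) and pqn-80 (0.21) under quantile normalization. In the same comparison 4 uncalled members turned into called rises, pqn-52 (0.18, adjusted p = 0.0163) and pqn-53 (0.14, adjusted p = 0.0274) under median-of-ratios scaling and pqn-68 (0.38, adjusted p = 0.0379) and pqn-75 (0.43, adjusted p = 0.00542) under quantile normalization. In all, median-of-ratios scaling turned 9 members in WLZ1 minus N2, 4 in WLZ3 minus N2 and 5 in WLZ3 minus WLZ1, and quantile normalization 8, 6 and 4. Among genes that met the naming rule or were added, uncalled values turned under median-of-ratios scaling for pqn-54 (0.11), pqn-68 (0.14), pqn-75 (0.025) and uggt-1 (0.017) in WLZ1 minus N2, for hsp-4 (0.039) in WLZ3 minus N2 and for dnj-27 (-0.018) in WLZ3 minus WLZ1. Under quantile normalization they also turned for WLZ1 minus N2 in pqn-54 (0.49), for WLZ3 minus N2 in pqn-84 (-0.082), and for WLZ3 minus WLZ1 in dnj-27 (-0.015), ges-1 (-0.10) and pqn-54 (-0.11). The lowest and highest values over the fits that leave out 1 library were -0.26 and 0.26 for abu-1, -0.13 and 0.53 for abu-15, -0.13 and 0.63 for idpc-3, -0.20 and 0.39 for pqn-54 and -0.064 and 0.061 for hsp-4 in WLZ3 minus N2. They were -0.061 and 0.018 for pqn-41 and -0.16 and 0.42 for pqn-54 in WLZ3 minus WLZ1, and -0.12 and 0.079 for pqn-54 and -0.13 and 0.069 for pqn-68 in WLZ1 minus N2. The turned values of abu-1, abu-15, idpc-3 and pqn-54 in WLZ3 minus N2 are those without WLZ3 replicate 1. The cause was not tested. The planned split by protein composition was not run. Depth limits the untested members, most of which had under 30 reads in all libraries.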
